A study of Mus musculus with 8 samples.

Results

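Tumour necrosis factor, encoded by Tnf, and 9 genes that the NF-kB transcription factors act on or that make up the pathway itself were followed through single-cell RNA libraries of mouse liver. The 10 members are named rows of the deposited matrix, which holds 31053 genes, of which 17384 had at least 1 UMI (unique molecular identifier, a count of one captured RNA molecule) in the cells kept. Each of the 8 libraries came from 1 C57Bl/6 mouse labelled male and bought at 6 to 8 weeks of age. The 4 control mice were given chow and the 4 HFHC mice the study diet, called high fat and high cholesterol in its design text and high fat and high calorie in the sample titles, for 20 to 32 weeks in both groups. Viable non-parenchymal cells were sorted after staining for PDPN, CD146, CD31 and CD45, with the aim of enriching endothelial cells, and the labels name no genetic change. The diet contrast therefore describes sorted cells, and the shares of cell types in it are set by the sort as well as by the liver.

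TNF binds its receptors on a target cell and starts a kinase cascade that frees NF-kB dimers from their cytoplasmic inhibitors. The freed dimers enter the nucleus and switch on inflammatory genes, genes that protect the cell from death, and genes that shut the pathway down again. Nfkbia encodes the inhibitor IkBa and Tnfaip3 the ubiquitin-editing enzyme A20, both classic feedback brakes. Nfkbiz encodes a nuclear IkB protein. Nfkb1, Nfkb2 and Relb encode NF-kB subunits, of which those of Nfkb2 and Relb form the core of the non-canonical branch. Birc3 encodes cIAP2, a ubiquitin ligase at the TNF receptor, Tnfaip2 is a TNF-inducible gene, and Bcl2 encodes a mitochondrial protein that restrains cell death. In liver, resident macrophages are a known source of TNF.

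The files held 3416 cells, and 3192 were left once a cell barcode found in several libraries was assigned to the one with its highest UMI total and dropped from the others. Barcodes were shared mainly among control 1, control 2, HFHC 1, HFHC 2 and HFHC 3, where each pair had 33 to 65 in common. After this step a library had 47 to 875 cells and between 170448 and 2309209 UMIs. The libraries differed in what they contained: at least 2 of 6 pan-endothelial markers were detected in 77.7% to 90.1% of the cells of control 3, control 4 and HFHC 4, in 56.4% and 36.2% of those of control 1 and HFHC 1, and in 1.52% to 11.7% of those of control 2, HFHC 2 and HFHC 3. In control 4, labelled male, 67 of 94 cells had an Xist UMI and 0 had a Y-linked UMI. Cells were placed in classes by their marker genes, none of which is a member, and a class is called "like" the cell type whose markers it carries. The classes used most here were LSEC-like (liver sinusoidal endothelial, 1203 cells, of which 543 were from control 3 and 530 from HFHC 4), hepatocyte-like (1316, of which 668 were from control 2 and 643 from HFHC 3), cholangiocyte-like (bile duct, 63), macrophage or monocyte-like (62), T or NK-like (78), B-like (57), basophil or mast-like (37) and neutrophil-like (23). Among the 10 genes leading each of these classes by fold were 1 to 7 of its own markers, except in hepatocyte-like and cholangiocyte-like cells, which had 0. Hepatocyte-like cells are not part of a non-parenchymal fraction, and they made up most cells of control 2 and HFHC 3. Most classes came from 1 or 2 libraries, and diet, class make-up and library cannot be told apart for them. Levels are CPM, the gene's UMIs per 1000000 UMIs of the cells summed, and intervals on single libraries are exact Poisson 95% intervals that cover counting error only. Where a count is 0, the level it is said to allow is that of 3 counts, a little below the upper end of the Poisson interval.

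The promoters of Tnf, the ligand, and of Nfkbia, the most often detected member, are shown because NF-kB acts through short DNA sites near the start of such genes. Both are the 250 bases before the start in RefSeq (GRCm38.p6, minus strand), printed on the gene's strand, with matches to the kB consensus motif on either strand in capitals.
Nfkbia, chr12:55492648-55492897: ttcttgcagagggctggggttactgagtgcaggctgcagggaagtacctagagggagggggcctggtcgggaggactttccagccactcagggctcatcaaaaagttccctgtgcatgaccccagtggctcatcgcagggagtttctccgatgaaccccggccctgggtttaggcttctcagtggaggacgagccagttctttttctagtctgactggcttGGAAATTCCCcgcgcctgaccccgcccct
Tnf, chr17:35202008-35202257: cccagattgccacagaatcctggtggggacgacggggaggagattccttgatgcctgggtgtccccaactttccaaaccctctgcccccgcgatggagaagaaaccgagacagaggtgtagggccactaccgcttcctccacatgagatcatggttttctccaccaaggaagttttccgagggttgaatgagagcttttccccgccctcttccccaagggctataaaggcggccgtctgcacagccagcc
The Nfkbia match, GGAAATTCCC, lies 29 to 20 bases before the start. The Tnf window holds no match, which says only that these letters are not in this window. Windows of 7 of the 10 members were read, and those of Nfkbiz, Nfkb1 and Relb were not analysed here. Of the 10 windows of these 7 genes, 6 held a match (those of 4 genes), against 7.25% of 32851 windows of all genes. Tnfaip3 had 2 matches in 1 window, GGGACACCCC and GGAAATCCCC, ending 116 and 3 bases before the start, and 1 of the 3 Nfkb2 windows had GGGAATTCCCC (overlapping matches) and GGGGCTTTCC, ending 29 and 2 bases before the start. Windows with 2 or more separate matches made up 0.396% of all. Tnfaip2 had 1 match, GGAGGGCCCC, and the Birc3 and Bcl2 windows had none. A match is a description of the letters and not a measured binding site.

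Tnf, on chromosome 17 (mm10, 35199381 to 35202007, minus strand), had 69 UMIs in 39 cells of all 3192. Summed over all cells of a library it stood at 0 in control 1, 0.563 CPM in control 2, 0 in control 3 and 0 in control 4, against 65.8 in HFHC 1, 85.1 in HFHC 2, 8.66 in HFHC 3 and 0.927 CPM in HFHC 4. HFHC 1 and HFHC 2 were high, HFHC 3 was intermediate, and HFHC 4 was as near 0 as the controls. The non-overlap of the groups rests on 1 UMI in control 2 against 1 UMI in HFHC 4, and a count of 0 allowed up to 17.6 CPM in control 1, 3.59 in control 3 and 11.7 in control 4 (3 counts). Nonetheless 68 of the 69 UMIs were in HFHC libraries. This split was counted after each shared barcode was kept in 1 library only, which left control 1 with 55 of its 129 cells. In these sums, more cells of a type and more RNA per cell cannot be told apart. The summed level of the 12 macrophage and monocyte markers was also highest in HFHC 1 and HFHC 2, though in the other order. It was 68.2 to 886 CPM in the controls, with 0 to 8 of the markers at 0. In HFHC 1 to 4 it was 7955, 4573, 1092 and 74.1 CPM, with 0 to 2 at 0. The highest control came near HFHC 3 in marker level, while Tnf was at most 0.563 CPM in the controls and 8.66 CPM in HFHC 3. The part of these cells in the Tnf result was not tested over the library sums.

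The Tnf UMIs sat in few cell classes. Macrophage or monocyte-like cells held 55.1% of them (38 UMIs) while holding 4.19% of all UMIs, and cholangiocyte-like cells held 23.2% (16 UMIs). In macrophage or monocyte-like cells the level was 211 CPM in HFHC 1 (8 UMIs, in 4 of 9 cells), 373 CPM in HFHC 2 (14 UMIs, in 7 of 19 cells, 95% interval 204 to 625) and 88.8 CPM in HFHC 3 (16 UMIs, in 5 of 27 cells, interval 50.7 to 144). A single cell held 6 of the 16 UMIs of HFHC 3. Neutrophil-like cells of HFHC 3 were at 141 CPM, from 2 UMIs in 14 cells. Hepatocyte-like cells had 0 Tnf UMIs in both libraries with at least 10 of them. The 3-count limits were 2.80 CPM in control 2 and 1.88 CPM in HFHC 3, and the Poisson intervals ended at 3.44 and 2.31 CPM. LSEC-like cells had 0 in all 4 control libraries and 1 UMI in the 530 cells of HFHC 4. Controls held 6 macrophage or monocyte-like cells in 3 libraries, with 0 Tnf UMIs, which allows up to 77.9 CPM, and the 56 such cells of HFHC libraries had 38 UMIs (148 CPM, in 16 cells). With so few control cells the diets were not compared within this class. With every barcode copy kept, control 1 and control 2 each had at least 5 such cells, so the control number depends on how shared barcodes were handled.

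**Figure D1:**
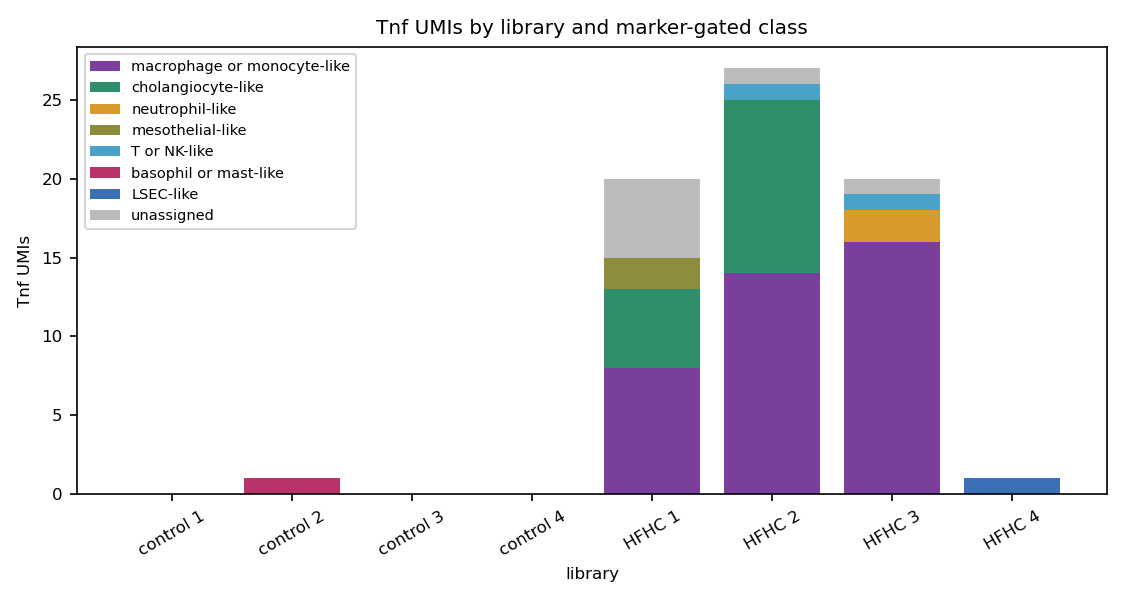
Tnf UMIs (vertical axis) in each of the 8 libraries (horizontal axis), stacked by marker-gated class. HFHC 1, HFHC 2 and HFHC 3 hold 20, 27 and 20 UMIs, mostly in macrophage or monocyte-like and cholangiocyte-like cells, and control 2 and HFHC 4 hold 1 each.

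Macrophage or monocyte-like cells were then compared with the other gated cells of the same library. Only HFHC 1, HFHC 2 and HFHC 3 had at least 5 such cells, a minimum used because fewer than 3 libraries had 10. Tnf was higher in the class in each library: 211 against 36.8 CPM in HFHC 1, 373 against 46.9 CPM in HFHC 2 and 88.8 against 1.52 CPM in HFHC 3. The log2 fold change was 3.63 (SE 0.66, edgeR quasi-likelihood test with library as a block, adjusted p = 0.00834, n = 3 libraries). Without the library block the adjusted p was 0.166, and with every barcode copy kept Tnf did not pass the filter on low counts. With shared barcodes removed, the comparison could not be run for lack of libraries. Of all 2546 genes tested, 6.99% were called higher in the class and 3.89% lower (10.9% in all), and 1 of the 6 members tested was called, as higher. That Tnf marks macrophages in these libraries was known when the members were chosen, so this is no independent support.

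Nfkbiz followed at 132 against 73.5 CPM in HFHC 1, 240 against 93.8 in HFHC 2 and 133 against 22.3 CPM in HFHC 3. It was above the other cells in 3 of 3 libraries, with a log2 fold change of 1.62 (SE 0.53) that did not pass the test (adjusted p = 0.0883). Nfkb1, the gene of the p50 subunit, stood at 250 against 18.2 CPM in HFHC 3, at 133 against 117 CPM in HFHC 2 and at 26.4 against 63.0 CPM in HFHC 1, so the libraries went different ways (log2 fold change 1.42, SE 0.83, adjusted p = 0.345). Nfkbia (0.96), Tnfaip2 (0.98) and Bcl2 (-0.28) did not pass either, with adjusted p of 0.309, 0.453 and 0.855. Relb and Birc3, which did not pass the filter, were lower in the class than in the other cells in HFHC 1 and HFHC 2 and higher in HFHC 3.

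**Figure D2:**
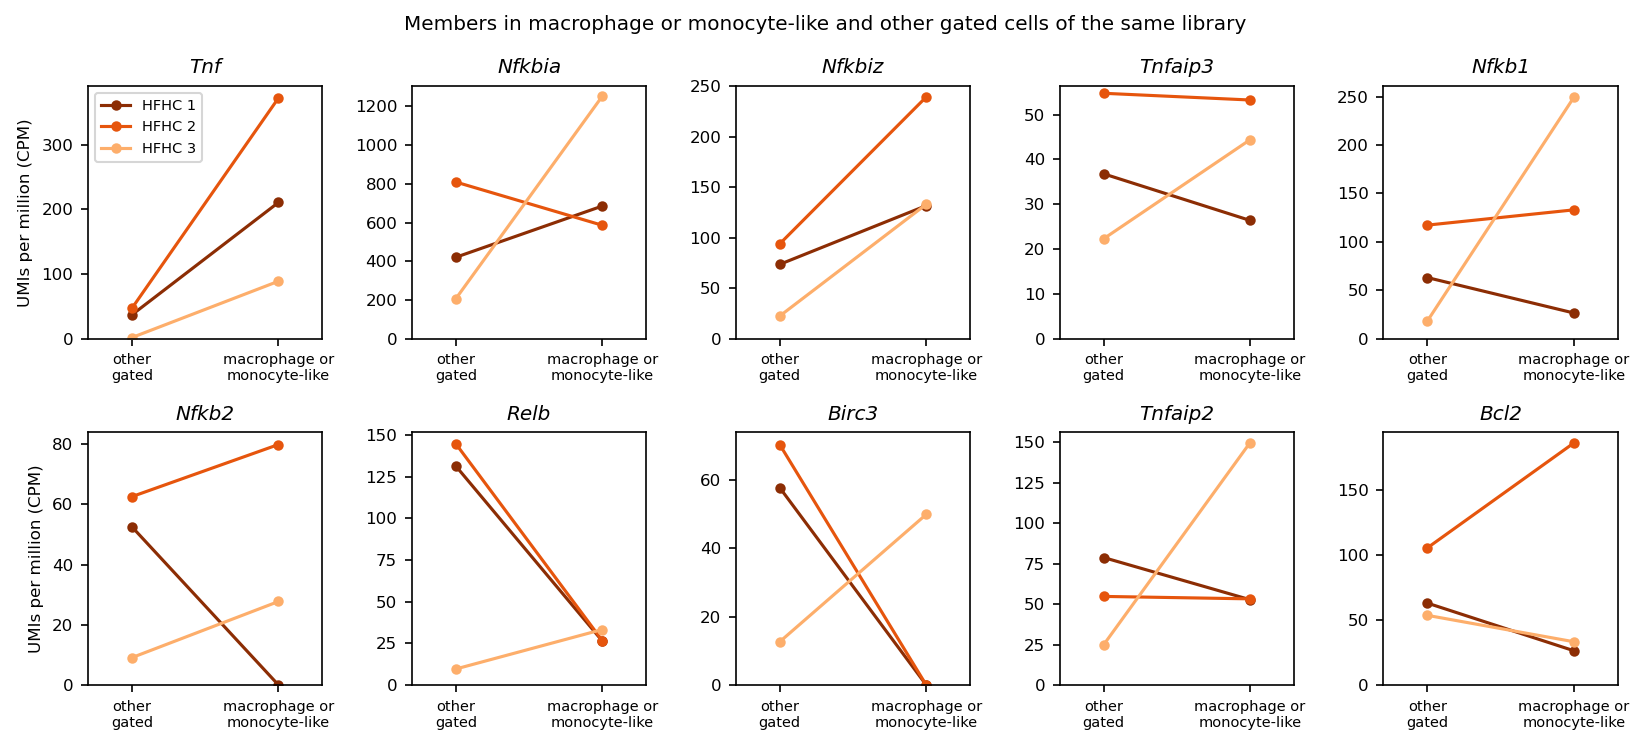
CPM (vertical axis) of each member in macrophage or monocyte-like cells and in the other gated cells of the same library, with 1 line per library. The Tnf and Nfkbiz lines go up in HFHC 1, HFHC 2 and HFHC 3, whereas the lines of the other 8 members do not share a direction.

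The wider pathway was read from 5 lists of 62 genes. In the same macrophage comparison 6.99% of all 2546 genes tested were called higher and 10.9% were called in either direction, and the lists gave between 0 and 3 calls each. With 2 to 12 tested genes a list, these counts do not set a list apart from all genes. Here 1 of 4 tested genes of the list of IKK components, NF-kB subunits and IkB proteins was called higher, namely Rel, the c-Rel subunit (log2 fold change 2.97, SE 0.69, adjusted p = 0.0228). Of the cytokine and adhesion list 1 of 9 was called, the neutrophil chemokine gene Cxcl2 (3.03, SE 0.67, adjusted p = 0.0187). Of the BCL2 family list 1 of 5 was called, Bcl2a1b (3.85, SE 0.74, adjusted p = 0.0100), one of several near-identical Bcl2a1 copies whose reads may be split. None of the 2 tested receptor and adaptor genes passed. Of 12 immediate early and dissociation genes, Fos (2.13), Atf3 (2.42) and Hspa1a (1.86) were called higher, with adjusted p of 0.0393, 0.0424 and 0.0421. These genes respond to tissue digestion as well as to cytokines. They moved with Tnf in this class, and their part in the Tnf result was not tested.

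Cholangiocyte-like cells carried Tnf UMIs too, at 58.3 CPM in HFHC 1 (5 UMIs, interval 18.9 to 136) and 50.4 CPM in HFHC 2 (11 UMIs, interval 25.1 to 90.1). Tnf was detected in 4 of 11 and 7 of 35 of these cells. In HFHC 2 the level in macrophage or monocyte-like cells was 7.40 times that in cholangiocyte-like cells (exact conditional 95% interval 3.12 to 18.0, counting error only). The cholangiocyte-like cells also carried macrophage RNA: at least 1 macrophage marker was found in 100% of them in HFHC 1 and 88.6% in HFHC 2, with 1 and 2 of the 12 markers at 0 and a summed level of 1305 and 1144 CPM, against 23850 CPM in the macrophage or monocyte-like cells of HFHC 2. Per 1000 UMIs of these markers, Tnf came to 44.6 in cholangiocyte-like and 5.97 in macrophage or monocyte-like cells of HFHC 1, a ratio of 7.47 (1.92 to 25.9), and to 44.0 and 15.6 in HFHC 2, a ratio of 2.82 (1.16 to 6.68). The part of macrophage RNA in the Tnf of cholangiocyte-like cells was not tested. The depth of cholangiocyte-like cells was greater, with medians of 7095 and 5352 UMIs per cell against 2363 and 1411. After thinning to 1000 UMIs per cell, Tnf remained in 1 of 11 and 0 of 31 cholangiocyte-like cells in HFHC 1 and HFHC 2, in 2 of 14 macrophage or monocyte-like cells of HFHC 2 and in 1 of 24 of HFHC 3. The 95% intervals of these 4 shares overlap.

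Nfkbia, on chromosome 12 (mm10, 55489410 to 55492647, minus strand), was detected in more cells than any other member, with 2234 UMIs in 913 cells. Its level differed between cell classes. Neutrophil-like cells of HFHC 3 had 2467 CPM (35 UMIs, interval 1719 to 3432), and basophil or mast-like cells had 2161 CPM in control 2 (77 UMIs, interval 1706 to 2701) and 2119 CPM in HFHC 3 (131 UMIs, interval 1772 to 2514). These 3 intervals overlap. Macrophage or monocyte-like cells came next in HFHC 3 at 1254 CPM (interval 1095 to 1428), above those of HFHC 2 at 586 CPM (interval 367 to 887). Cholangiocyte-like cells had 571 and 696 CPM in HFHC 1 and HFHC 2, and T or NK-like cells of HFHC 3 had 425 CPM. LSEC-like cells stood between 234 CPM in control 2 and 424 CPM in control 4, and B-like cells at 221 and 313 CPM, with overlapping intervals. Lymphatic endothelial-like cells of control 4 had 254 CPM and vascular endothelial-like cells of HFHC 4 had 598 CPM. Hepatocyte-like cells were lowest at 78.4 CPM in control 2 (interval 62.6 to 97.1) and 81.5 CPM in HFHC 3 (interval 68.1 to 96.8).

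Within control 2 the basophil or mast-like level was 27.6 times the hepatocyte-like level (exact conditional interval 20.0 to 38.0), and within HFHC 3 it was 26.0 times (20.2 to 33.4). Of all genes compared in those 2 pairs, 10.8% and 12.9% had an interval wholly above 1, and 4 and 5 of the 10 members did, while 5.9% and 9.01% of genes and 0 members had one below 1. Here and in the pairs below, the genes compared were all those with at least 1 UMI over both sums. A gene with few UMIs can hardly have an interval outside 1, so these shares are no measure for members with more UMIs. An Nfkbia UMI was found in 12 of 14 and 22 of 23 basophil or mast-like cells, and in 10.5% and 16.2% of hepatocyte-like cells, whose median depth was 1084.5 and 1970 UMIs against 2598.5 and 2476. Thinned to 1000 UMIs, the basophil or mast-like shares were 85.7% and 69.6% and the hepatocyte-like shares 6.30% and 7.48%, with 303 and 95 shallower hepatocyte-like cells left out. Basophils are rare granulocytes, and the sort sets how many of them were seen.

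Nfkbiz (chromosome 16, 55811375 to 55838899, minus strand) had its highest levels in these classes too: 705 CPM in neutrophil-like cells of HFHC 3 (10 UMIs), 393 and 372 CPM in basophil or mast-like cells of control 2 and HFHC 3, and 240 and 133 CPM in macrophage or monocyte-like cells of HFHC 2 and HFHC 3. Hepatocyte-like cells had 1.87 and 3.14 CPM, and LSEC-like cells had 3.77 to 86.5 CPM. Basophil or mast-like cells held 16.2% of all Nfkbiz UMIs and 1.38% of all UMIs. A further 31 UMIs were in the 26 mesothelial-like cells, no library of which reached 10 cells.

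Tnfaip3, the A20 gene (chromosome 10, 19000910 to 19015657, minus strand), was sparse (139 UMIs). It was highest in neutrophil-like cells of HFHC 3 at 282 CPM (4 UMIs), followed by basophil or mast-like cells of HFHC 3 at 162 CPM (10 UMIs), T or NK-like cells of HFHC 3 at 146 CPM (26 UMIs, in 22 of 66 cells) and basophil or mast-like cells of control 2 at 84.2 CPM (3 UMIs), with overlapping intervals. Hepatocyte-like cells had 3 UMIs in 1594398 in HFHC 3 and 0 in control 2. Across the 19 class and library sums of at least 10 cells, log2(CPM + 10) of Nfkbia correlated with that of Nfkbiz at Pearson's r of 0.80, with that of Tnfaip3 at 0.72, with that of Tnf at 0.56 and with that of Tnfaip2 at 0.43. Its r with Nfkb1, Nfkb2, Relb, Birc3 and Bcl2 lay between -0.10 and 0.30. These sums share libraries and differ in depth, and the values are given as a description only.

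**Figure D3:**
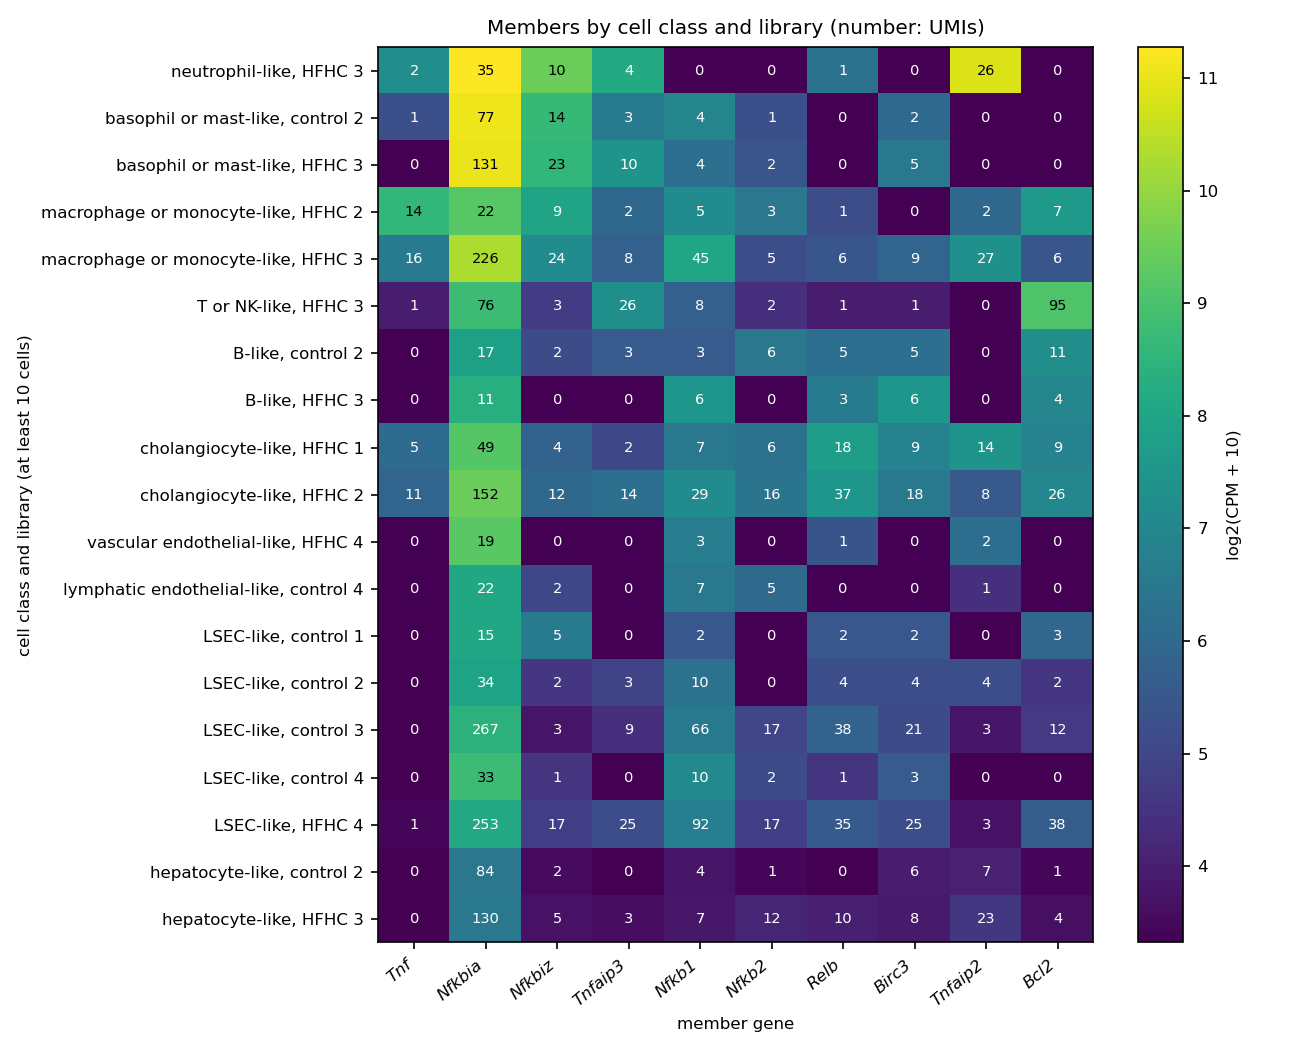
Heat map of log2(CPM + 10) of the 10 members (columns) in the 19 class and library sums of at least 10 cells (rows), with the number of UMIs printed in each cell. Nfkbia and Nfkbiz are brightest in neutrophil-like and basophil or mast-like rows, Tnfaip2 in the neutrophil-like row, Bcl2 in the T or NK-like row and Tnf in the macrophage or monocyte-like row of HFHC 2.

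The remaining members had other leading classes. Tnfaip2 (chromosome 12, 111442469 to 111455018, plus strand) reached 1833 CPM in neutrophil-like cells of HFHC 3 (26 UMIs in 10 of 14 cells, interval 1197 to 2686), and 150 CPM in macrophage or monocyte-like cells of the same library. It was at 163 CPM in cholangiocyte-like cells of HFHC 1, where 1 cell held 10 of its 14 UMIs, and at 36.6 CPM in those of HFHC 2. Smaller sets of neutrophil-like cells had 459 CPM in control 2 (6 cells) and 2190 CPM in HFHC 2 (3 cells). Neutrophil-like cells held 23.5% of Tnfaip2 UMIs and 0.425% of all UMIs. Basophil or mast-like, B-like and T or NK-like cells had 0 Tnfaip2 UMIs in every library with 10 such cells. Their 3-count limits ran from 16.8 CPM in T or NK-like cells to 85.4 CPM in B-like cells of HFHC 3.

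Bcl2, the death-restraining gene on chromosome 1 (106538178 to 106714274, minus strand), reached 532 CPM in T or NK-like cells of HFHC 3 (95 UMIs, in 39 of 66 cells, interval 430 to 650), above the interval of every other class sum of at least 10 cells. T or NK-like cells of all libraries held 35.5% of Bcl2 UMIs. Macrophage or monocyte-like cells of HFHC 2 had 186 CPM (7 UMIs, interval 74.9 to 384), B-like cells 143 and 114 CPM in control 2 and HFHC 3, and cholangiocyte-like cells 105 and 119 CPM in HFHC 1 and HFHC 2. Basophil or mast-like and neutrophil-like cells, which led for Nfkbia, had 0 Bcl2 UMIs, which allows up to 84.2 and 48.5 CPM in basophil or mast-like cells of control 2 and HFHC 3 and 211 CPM in neutrophil-like cells. Thinned to 1000 UMIs, Bcl2 remained in 42.4% of the T or NK-like cells, against 59.1% before.

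Relb (chromosome 7, 19606217 to 19629438, minus strand) was highest in cholangiocyte-like cells, at 210 CPM in HFHC 1 (18 UMIs, interval 124 to 331) and 169 CPM in HFHC 2 (37 UMIs, interval 119 to 233). B-like cells followed at 65.1 and 85.4 CPM and LSEC-like cells at 12.9 to 47.8 CPM. Macrophage or monocyte-like cells had 26.6 and 33.3 CPM in HFHC 2 and HFHC 3. In HFHC 2 Relb in macrophage or monocyte-like cells was 0.157 times the cholangiocyte-like level (exact conditional interval 0.00388 to 0.932, 1 UMI against 37). In this pair 2 members, Tnf and Nfkbiz, had an interval above 1 and Relb had one below 1, against 4.84% and 3.4% of 12094 genes. The 12094 genes include those with few UMIs. Cholangiocyte-like cells held 28.2% of all Relb UMIs and 5.62% of all UMIs. Nfkb2 (chromosome 19, 46304320 to 46312385, plus strand), whose p100 product partners RelB, was at 79.9 CPM in macrophage or monocyte-like cells of HFHC 2 (3 UMIs), 69.9 and 73.2 CPM in cholangiocyte-like cells, 78.1 CPM in B-like cells of control 2 and 57.8 CPM in lymphatic endothelial-like cells of control 4 (5 UMIs in 23 cells), with overlapping intervals.

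Birc3 (chromosome 9, 7848699 to 7873186, minus strand) led in B-like cells of HFHC 3 at 171 CPM (6 UMIs, interval 62.7 to 372) and in cholangiocyte-like cells at 105 and 82.4 CPM, with overlapping intervals. Among sums of at least 10 cells, Nfkb1 (chromosome 3, 135584655 to 135691547, minus strand) was highest in macrophage or monocyte-like cells of HFHC 3 at 250 CPM (45 UMIs, in 19 of 27 cells). It was next in B-like cells of HFHC 3 at 171 CPM and in cholangiocyte-like and in macrophage or monocyte-like cells of HFHC 2 at 133 CPM. LSEC-like cells carried 45.0% of its UMIs and 29.1% of all UMIs, at 34.6 to 129 CPM. The 12 dendritic-like cells, no library of which reached 10, had 232 CPM over all libraries (18 UMIs in 7 cells), against 190 CPM for all macrophage or monocyte-like cells. After thinning to 1000 UMIs per cell, Nfkb1 was detected in 12.5% of the macrophage or monocyte-like cells of HFHC 3 (3 of 24, against 70.4% before) and in 26.7% of the B-like cells (4 of 15, against 33.3%), so no order of these classes is read from the shares. Compared with LSEC-like cells of HFHC 4, cholangiocyte-like cells of HFHC 2 had ratios with intervals wholly above 1 for 9 of the 10 members, Nfkb1 being the exception (1.36, interval 0.861 to 2.08). The background for this pair was 20.6% of 13687 genes above 1 and 10.1% below, and the cells differ in library as well as in class. This background includes genes with few UMIs, and no share was taken for genes with counts like those of the members. In control 4, lymphatic endothelial-like and LSEC-like cells could be compared within 1 library, and the intervals of the 7 members with a UMI all included 1, where 6.39% of genes lay above and 9.28% below. Nfkbia stood there at 254 against 424 CPM (ratio 0.599, interval 0.333 to 1.06).

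Summed over all cells, the diets were compared with 4 libraries each. Nfkbia was at 276, 216, 329 and 268 CPM in control 1 to 4 and at 539, 879, 308 and 283 CPM in HFHC 1 to 4. HFHC 1 and HFHC 2 lay above every control, and HFHC 3 and HFHC 4 lay among them. Means were 272 ± 46.1 CPM (SD, n = 4) and 502 ± 277 CPM (SD, n = 4). Tnfaip3 was at 0, 11.3, 10.8 and 0 CPM in the controls and at 32.9, 53.6, 24.7 and 24.1 CPM in HFHC 1 to 4, so the groups did not overlap. The 0 in control 1 and in control 4 allowed up to 17.6 and 11.7 CPM (3 counts).

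Bcl2 was at 52.8, 20.8, 16.7 and 11.7 CPM in the controls and at 98.7, 120, 54.1 and 41.7 CPM in HFHC 1 to 4, with HFHC 4 below control 1. Relb was at 29.3, 10.7, 46.7 and 23.3 CPM against 118, 123, 12.6 and 43.6 CPM, HFHC 1 and HFHC 2 being the high libraries. Tnfaip2 was at 23.5, 17.5, 5.98 and 3.89 CPM against 59.2, 56.7, 34.6 and 4.63 CPM, HFHC 4 lying among the controls. For Nfkbiz, Nfkb1, Nfkb2 and Birc3 the highest library was HFHC 2 in each case, at 120, 117, 69.3 and 59.9 CPM, and the ranges of the diets overlapped, with control maxima of 106, 85.5, 29.3 and 35.2 CPM. HFHC 1 and HFHC 2 were the 2 highest HFHC libraries for every member but Nfkb1. They held 9 and 19 of the 62 macrophage or monocyte-like cells and 11 and 35 of the 63 cholangiocyte-like cells, and the part of these cells in the differences was not tested.

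**Figure D4:**
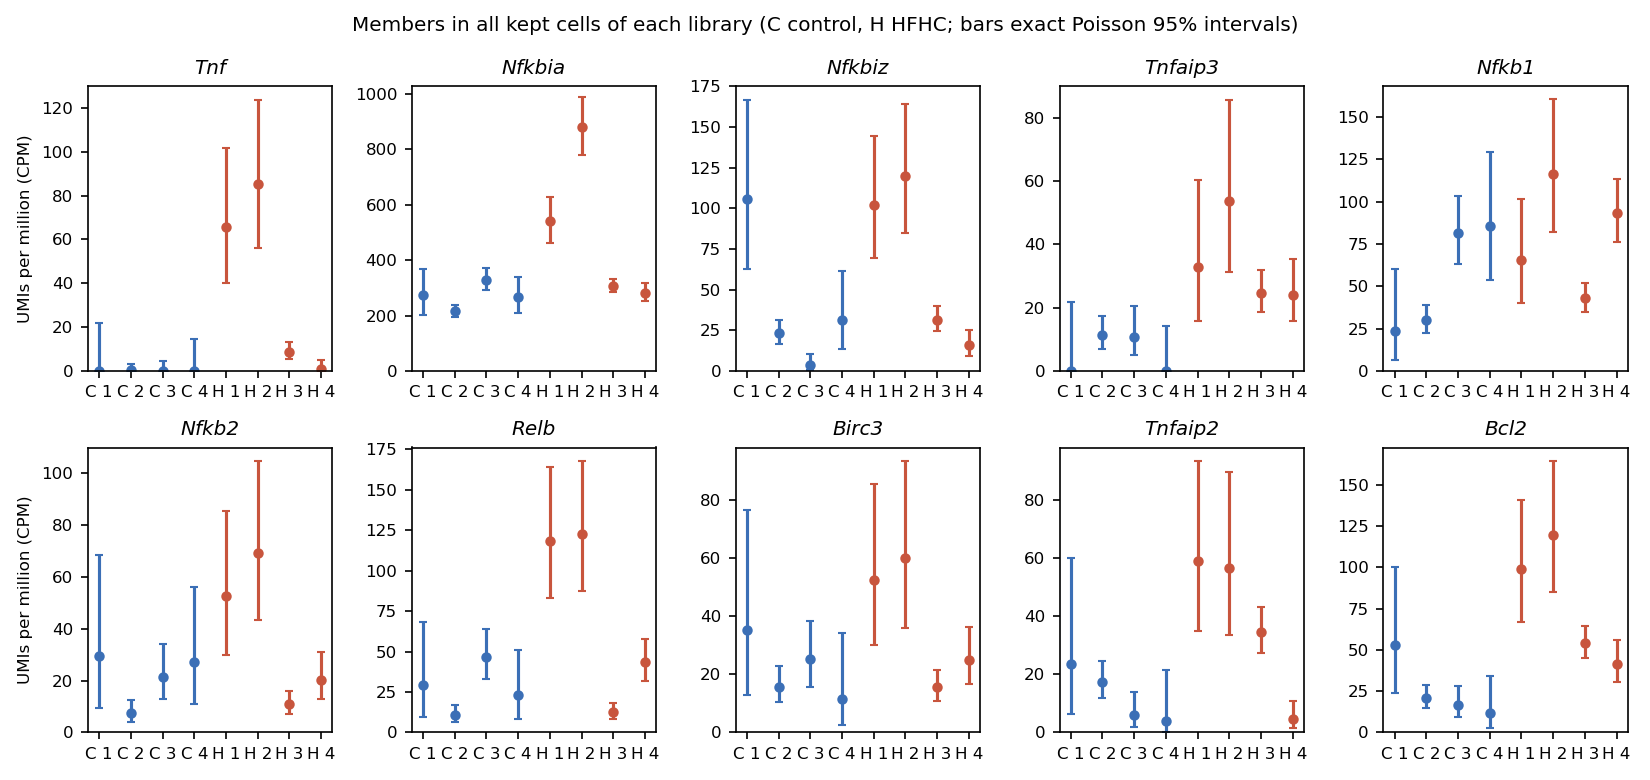
CPM (vertical axis, from 0) of each member over all kept cells of control 1 to 4 (C, blue) and HFHC 1 to 4 (H, red), with exact Poisson 95% intervals as bars. HFHC 1 and HFHC 2 are the 2 highest HFHC libraries in every panel but that of Nfkb1, and only Tnf and Tnfaip3 show no overlap between the groups.

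In the test over all 8 libraries no gene passed: 0 of 6666 genes had an adjusted p under 0.05 in edgeR's quasi-likelihood test (54 had an unadjusted p under 0.05), and DESeq2 called 0 as well (126 unadjusted). The percentage called is therefore 0, for the members and for all genes. All 9 members tested had a positive log2 fold change, with a median of 0.89, against 55.1% of all genes and a median of 0.06. The values were 2.05 for Tnfaip3 (SE 0.73, unadjusted p = 0.0196), 1.67 for Bcl2 (SE 0.55, unadjusted p = 0.0138), 1.54 for Tnfaip2, 1.41 for Relb, 0.89 for Nfkbia and Nfkb2, 0.79 for Nfkbiz, 0.77 for Birc3 and 0.57 for Nfkb1, each with an adjusted p of 0.999. Tnf had too few counts for the filter. Without it, its log2 fold change was 6.06 (SE 1.42, unadjusted p = 0.00123, adjusted p 1.00). On simulated data of this layout, the same test recovered 6% of 4-fold and 42% of 8-fold changes. The simulation held 50 changed genes at each of 2-fold, 4-fold, 8-fold and 32-fold and gave 72 calls. With that many calls the adjustment is less strict than in the real data, so an isolated change may be recovered less often. None of the differences given above passed it after adjustment, which does not show that there is none. Their sizes moved with single libraries: Nfkbiz came to 1.61 without control 1, 0.34 without control 3, 0.44 without HFHC 1 and 0.39 without HFHC 2. Without HFHC 2, Nfkbia came to 0.55, Nfkb2 to 0.47 and Birc3 to 0.51. Birc3 came to 0.50 without control 4, and Nfkb1 to 0.30 without control 1. With shared barcodes removed, Nfkbia, Nfkbiz and Bcl2 came to 1.34, 1.63 and 2.52, and Birc3, Nfkb1 and Relb to 0.15, 0.31 and 0.75.

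Non-overlap was rare in general: every HFHC library lay above every control library for 0.627% of the 17384 detected genes, and for 2 of the 10 members, Tnf and Tnfaip3. The mean CPM was higher in HFHC for 54.6% of genes and for 10 of 10 members. Within the libraries that share barcodes, HFHC 1, HFHC 2 and HFHC 3 each lay above control 1 and control 2 for Tnf, Nfkbia, Tnfaip3, Nfkb1, Tnfaip2 and Bcl2, which is 6 of 10 members, against 7.64% of all genes. The shares of 0.627% and 7.64% count every gene with at least 1 UMI, and a gene with very few UMIs cannot lie above in several libraries. The members had 69 to 2234 UMIs each, and no share was taken for genes of like count. In the fit of the 5 barcode-sharing libraries alone, 0 genes and 0 members were called. The log2 fold changes there ran from 0.34 for Nfkbiz to 1.99 for Tnfaip3 and Relb, with Nfkb1 at 1.22. The other 3 libraries hold 1 HFHC mouse only, so HFHC 4 stood alone against control 3 and control 4. Of the pathway lists, 9 of 9 tested cytokine and adhesion genes (median 1.52) and 6 of 6 tested genes of IKK components, subunits and IkB proteins (median 0.28) had positive fold changes, and 0 passed. Examples from the cytokine and adhesion list were the chemokine genes Ccl2 (3.80, SE 1.32) and Cxcl1 (2.27, SE 0.92). Its adhesion receptor genes Vcam1 and Icam1 came to 1.50 (SE 0.99) and 1.01 (SE 0.66). From other lists, the A20-binding gene Tnip1 (receptor and adaptor list) came to 1.32 (SE 0.53) and Bcl2a1b (BCL2 family list) to 3.54 (SE 1.26). The TNF receptor genes Tnfrsf1a (-0.78, SE 0.65) and Tnfrsf1b (0.89, SE 1.26) differed in sign, the second being named here after its value was seen. Of the receptor and adaptor list 9 of 13, of the BCL2 family list 5 of 7 and of the immediate early and dissociation list 10 of 13 were positive.

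LSEC-like cells allowed a comparison within 1 class, with 4 control libraries and HFHC 4 as the only HFHC library with at least 10 cells. It therefore describes that mouse, and the spread is taken from the controls. Nfkbia was at 260, 234, 336 and 424 CPM in control 1 to 4 (mean 313 ± 85.7 CPM, SD, n = 4) and at 269 CPM in HFHC 4, within the control range. Nfkb1 was at 34.6, 68.9, 83.0 and 129 CPM and at 97.8 CPM in HFHC 4. Of 4048 genes tested 15 were called (0.371%, of which 0.148% higher and 0.222% lower), and 0 of the 3 members tested: Nfkb1 at a log2 fold change of 0.43, Nfkbia at -0.07 and Nfkbiz at -0.24, each with an adjusted p of 1.00. With no filter all 10 members were tested and 0 were called. Tnfaip3 in HFHC 4 was at 26.6 CPM, above the 0 to 20.7 CPM of the controls, though the counts of 0 in control 1 and control 4 allowed up to 51.9 and 38.6 CPM, and Tnf was above the controls by 1 UMI. The other 8 members lay within the control range. Of the immediate early and dissociation list 1 of 11 tested genes had a positive fold change (median -0.66), against 44.9% of all genes, and 0 were called.

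The 2 deepest LSEC-like sums, HFHC 4 (940271 UMIs) and control 3 (795631 UMIs), were set against each other as single libraries, with counting error only and no test of diet. Bcl2 was 2.68 times higher in HFHC 4 (38 against 12 UMIs, interval 1.37 to 5.63), Nfkbiz 4.79 times (17 against 3 UMIs, interval 1.39 to 25.5) and Tnfaip3 2.35 times (25 against 9 UMIs, interval 1.06 to 5.72). Nfkbia was lower, at 0.802 times (253 against 267 UMIs, interval 0.672 to 0.956). Intervals wholly above 1 were found for 3 of 10 members against 4.68% of 12652 genes, and wholly below 1 for 1 of 10 against 9.62%. The shares of genes include those with few UMIs, whose intervals can hardly exclude 1. No share was taken for genes with counts like those of the members. Control 1 had more Bcl2 (51.9 CPM, 3 UMIs) and Nfkbiz (86.5 CPM, 5 UMIs) in its 21 LSEC-like cells than HFHC 4 (40.4 and 18.1 CPM). HFHC 4 thus lay within the control range for both. The control 1 levels rest on few UMIs (intervals 10.7 to 152 and 28.1 to 202 CPM), so counting error and spread among controls cannot be told apart. Tnfaip3 in HFHC 4 (26.6 CPM) lay above the controls (0 to 20.7 CPM), within the limits of the counts of 0 given above.

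Hepatocyte-like cells of HFHC 3 and control 2 had nearly the same Nfkbia level (ratio 1.04, interval 0.784 to 1.38). Nfkb2 had 12 against 1 UMIs (ratio 8.06, interval 1.19 to 345). Relb had 10 against 0 UMIs, with an interval from 1.51 upwards and no upper end. Its level in HFHC 3 was 2.24 times the 3-count limit of control 2, a value that leaves out counting error in the 10 UMIs. Nfkb2 and Relb were the 2 of 10 members with an interval above 1, where 10.5% of all genes had one and 4.73% had one below 1. In basophil or mast-like cells of the same 2 libraries the ratio of Nfkbia was 0.980 (interval 0.734 to 1.32) and that of Nfkbiz 0.947 (0.467 to 1.99). No member had an interval outside 1 there, where 1.08% of genes lay above and 1.33% below. In B-like cells 0 members lay outside 1 either, against 1.4% of genes above and 0.902% below, with Nfkbia at a ratio of 1.42 (interval 0.599 to 3.20).

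**Figure D5:**
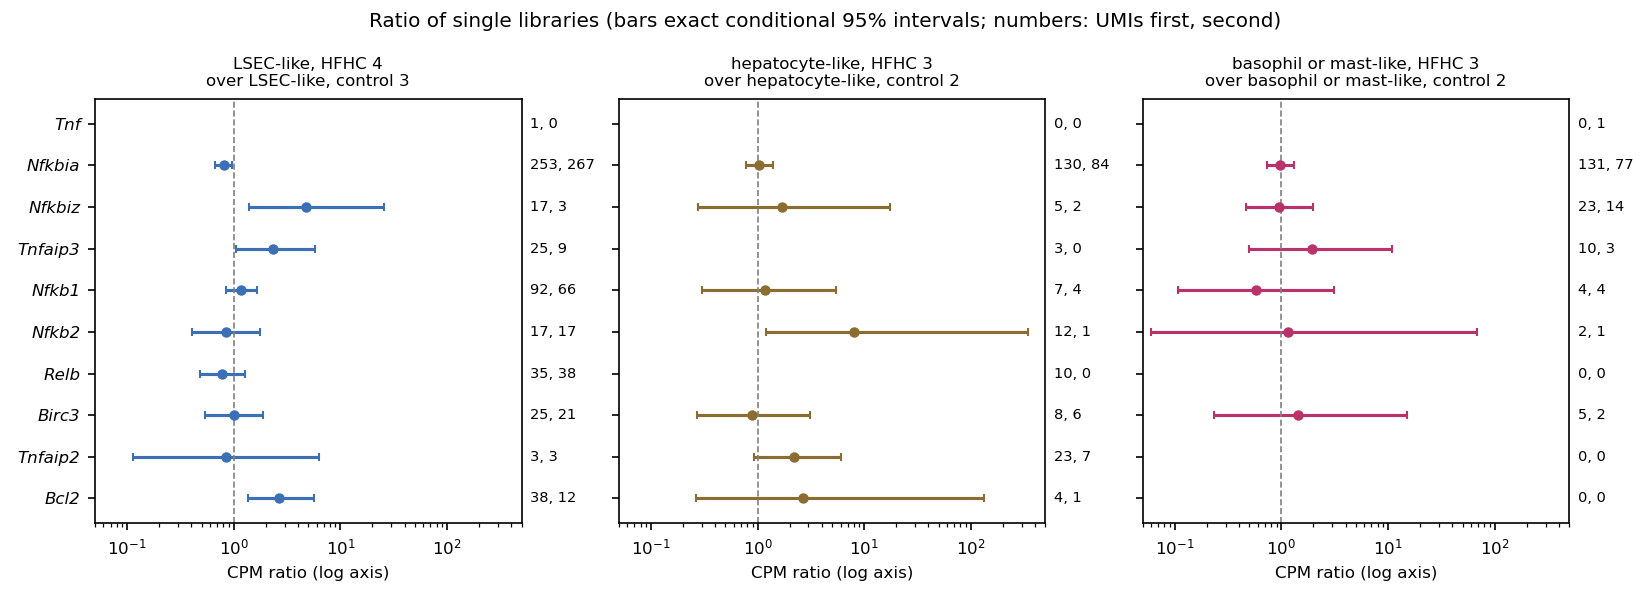
Ratio of CPM between single libraries (horizontal log axis) for each member in LSEC-like, hepatocyte-like and basophil or mast-like cells, with exact conditional 95% intervals as bars, UMIs of the first and second library at the right, and no point where either count is 0. In LSEC-like cells Nfkbiz, Tnfaip3 and Bcl2 lie above 1 and Nfkbia lies below it, and in basophil or mast-like cells every interval includes 1.

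LSEC-like cells were also compared with the other gated cells of control 1, control 2, control 4 and HFHC 4. Of 1626 genes 8.24% were called (6.27% higher, 1.97% lower), and Nfkbia, the only member that passed the filter, was not (log2 fold change -0.14, SE 0.48, edgeR quasi-likelihood adjusted p = 0.886).

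The genes whose pattern over the 19 sums was most like that of Tnf were Csf2ra (Pearson's r 0.955), Lrrc25 (0.943), Clec12a (0.925), Mpeg1 (0.924) and Cd68 (0.894), out of 7222 genes ranked. Cd68 is one of the macrophage markers that define the class. For Nfkbia they were the cytoplasmic actin gene Actg1 (0.897), Vasp (0.890), Arpc1b (0.853), Fes (0.853) and the immediate early gene Ier2 (0.849). The sums share libraries, depth and class markers, and the correlations are a description.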

How the data were processed

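Single-cell libraries of 8 mice were deposited as 1 matrix of raw UMI counts per gene and cell. The authors made these counts with Cell Ranger 3.0.1 and used Seurat (version not given), on mm10, per the submitters' processing notes. Barcodes shared between libraries were kept once. A cell took a class when at least 3 markers of it were detected (hepatocyte and erythroid markers also at 1 percent of UMIs) and no other class reached 75 percent of its marker number. No doublet caller was run, and a class can hold doublets. Sums of counts were taken for each class in each library that held 10 or more of its cells, or 5 for the macrophage comparison, which this rule would otherwise leave with fewer than 3 libraries. Sums were tested with edgeR 4.0.16 (glmQLFit, TMM, filterByExpr) in R 4.3.3, with Benjamini-Hochberg adjustment at 0.05 over all genes tested. The tests were tried on simulated data. Intervals came from scipy 1.17.1, with Wilson intervals for shares, and cover counting error only. Gene positions are from GENCODE M21. Counting strand is not given in the sources used here, and Nfkb2, Tnfaip2 and Bcl2 overlap genes of the opposite strand (Psd, Gm40578 and D630008O14Rik with 3, 0 and 2 UMIs).

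The members and the 5 pathway lists were chosen with earlier results of these data known. All members are named. Of each list at most 4 genes with the smallest p in a comparison are named, and for Tnf and Nfkbia the 5 genes with the highest Pearson correlation of log2(CPM + 10) over 19 sums, among genes with at least 100 UMIs. Other settings tried were the test or the size factors of DESeq2 1.42.0, no filter, a minimum of 500 genes per cell, other handling of shared barcodes, a stricter gate of 4 markers, other cell minima, blocks and leaving out each library. A hepatocyte gate at 2 percent and leaving out cells over 10000 UMIs were added after seeing the data. Replicate numbers do not pair the mice.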

Additional observations from a re-analysis of the deposited data

Results flagged for a closer look

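Of 30 groups of 4 libraries examined for a library far from the others, 3 stood out. The rule is set to flag about 1 in 20 groups of continuous values, and that rate does not hold for counts this sparse. With 3 libraries at 0, any UMI in the other library is flagged. Tnf over all cells was at 0.563 CPM in control 2 (1 UMI) and at 0 in the other control libraries. Nfkbiz in LSEC-like cells was at 86.5 CPM in control 1 (5 UMIs in 21 cells), and the nearest control was at 13.8 CPM. Tnfaip2 in LSEC-like cells was at 27.5 CPM in control 2 (4 UMIs in 64 cells), and the nearest control was at 3.77 CPM. All of these rest on 5 UMIs or fewer.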

How the results depend on the processing

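Over all cells summed, 0 genes and 0 members were called under every alternative run. The replicate block also gave 0 genes and 0 members (110 genes at an unadjusted p under 0.05). In their deviations from the diet means, same-numbered libraries correlated at 0.498, -0.0809, -0.416 and 0.161. Control 2 with HFHC 3 (0.830) and control 3 with HFHC 4 (0.776) correlated more, so the numbers were not taken to pair mice. For the LSEC-like diet comparison, 15 genes were called, against 30 with DESeq2 (27 higher, 3 lower), 8 with no filter and 3 with shared barcodes removed. Leaving out a library gave 4 (without control 1) to 16, and 5 without control 2. For LSEC-like against other cells, 134 genes were called, against 237 with DESeq2, 403 with no filter (191 higher, 212 lower), 268 with the stricter gate, 243 at 5 cells and 87 with no library block. Leaving out a library gave 58 (without control 2) to 261 (without HFHC 4), and 74 without control 1. For macrophage or monocyte-like cells, 277 genes were called, against 798 with no filter (270 higher, 528 lower), 448 with barcode copies kept (194 higher, 254 lower), 92 with no library block and 158 without cells over 10000 UMIs. Leaving out a library gave 132 (without HFHC 1) to 485 (without HFHC 3). The 1 member called there, Tnf, passed under 10 of the 11 alternatives that tested it (log2 fold change 3.05 to 4.18, adjusted p of edgeR or DESeq2 3.37e-05 to 0.166). Members called fell to 0 with no library block and to 0 with barcode copies kept, where Tnf was not tested. Of 274 log2 fold changes of members under alternatives, 262 kept direction and call, 1 lost its call and 11 changed sign, none of them called. Nfkbia in the LSEC-like diet comparison became 0.082 with no filter and -0.13 to 0.078 with a library left out, the highest being without control 4. Nfkbiz there became 0.30 with no filter, 0.086 without control 2 and 0.050 without control 4. Nfkbia in LSEC-like against other cells became 0.029 with the stricter gate, 0.052 at 5 cells and -0.54 to 0.27 with a library left out, the highest being without HFHC 4. Bcl2 in macrophage or monocyte-like cells became 0.46 with barcode copies kept, 1.01 with the stricter gate and -0.24 to 0.53 with a library left out, the highest being without HFHC 3. The cause of these changes was not tested. Thinning moved 86 of 180 shares of cells beyond their interval, and the stricter gate 5 of 180. Not run for lack of libraries were the LSEC-like diet comparison without HFHC 4 or with a replicate block, LSEC-like against other cells at 20 cells, and the macrophage comparison at 10 or 20 cells or with shared barcodes removed. Depth limits Tnf (69 UMIs) and Nfkb2 (128 UMIs) most.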
